A study of Mus musculus with 2 samples.

Results

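The 9 genes followed here were H2-Aa, H2-Ab1, H2-Eb1, H2-DMa, H2-DMb1, H2-Oa, Cd74, Ciita and Ifi30, core genes of antigen presentation by MHC class II. They were taken by symbol from the gene list of the deposited matrices, and all 9 were found among the 32285 genes listed. Their counts of unique molecular identifiers (UMIs, each standing for 1 captured RNA molecule) were read in every epithelial cell type of the thymus that marker genes could define. The samples were live EPCAM+ cells sorted from dissociated mouse thymus. They came as 1 droplet library from Cre+ mice, labelled KO for Foxp1 by its title, and 1 from Cre- mice, labelled WT by its title. The genotype field gives KO for both samples, so the groups here rest on the titles. The forkhead transcription factor Foxp1 was studied by the submitters for how it bears on thymic epithelial gene programmes and on mimetic cells, the medullary cells that take on the programme of a peripheral tissue. Which exons were deleted, which promoter drove the Cre, and the strain, age and number of the mice are not stated by the labels, so whether either library pools animals is not known here.

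MHC class II molecules carry peptides from the endosomal route to CD4+ T cells. An alpha and a beta chain (H2-Aa with H2-Ab1 for I-A, and H2-Eb1 as the beta chain of I-E) assemble around the invariant chain, which Cd74 encodes. H2-DMa and H2-DMb1 form H2-DM, which exchanges the remnant of the invariant chain for peptide, and H2-Oa is the alpha chain of H2-O, an inhibitor of H2-DM. Ifi30 encodes GILT, a thiol reductase that unfolds antigens in endosomes, and Ciita encodes the transactivator that switches the whole set on. In the thymic medulla, epithelial cells that express Aire present self-antigens on class II to developing T cells, and their class II level is commonly used to separate mature from immature medullary cells.

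Of the 9 genes, 6 lie together in the MHC on chromosome 17, within a stretch of 224 kb from 34092340 to 34316674 (mm10, GENCODE M21 annotation). Ciita lies on chromosome 16 (10480059 to 10528418) and Ifi30 on chromosome 8 (70762774 to 70766663), and Cd74 is also outside the MHC. H2-DMa and Cd74 each share their strand and some of their span with a second annotated gene (CR974462.3 and the microRNA gene Mir5107), so some of their UMIs could belong to it. H2-DMb1 and H2-Eb1 each have a close relative nearby, H2-DMb2 and H2-Eb2, and UMIs could have been divided between relatives by the authors' counting.

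Class II promoters share an X box and a Y box with fixed spacing, the platform on which the RFX and NF-Y complexes sit and to which the Ciita protein is recruited. RefSeq promoter windows (GRCm38.p6, 250 bases before to 50 after a start) were searched for 6 of the 9 members. No window was searched for H2-Ab1, Cd74 or Ciita, so whether their promoters hold these boxes was not tested. Both strands were searched for CNNGNAAC (X box) and TGATTGG (Y box). These motif letters were chosen after the sequences had been seen. An X box followed within 5 to 40 bases by a Y box on the same strand was found in H2-Aa, H2-Eb1, H2-DMb1 and H2-Oa. The same pair stood in 90 of the 32851 promoter windows searched (0.274%), while the X letters alone were in 39.1% and the Y letters alone in 7.82%. Of the class II relatives searched the same way, H2-Ob and H2-Eb2 held the pair, and H2-DMb2 held both motifs but not as such a pair. The stretches below are 3 of the 4 members with the pair and H2-Ob, shown for the spacing of the boxes; capitals mark the X box and then the Y box.
H2-Aa: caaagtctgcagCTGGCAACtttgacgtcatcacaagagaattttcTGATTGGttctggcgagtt
H2-Eb1: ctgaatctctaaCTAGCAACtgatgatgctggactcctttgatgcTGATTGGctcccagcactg
H2-Oa: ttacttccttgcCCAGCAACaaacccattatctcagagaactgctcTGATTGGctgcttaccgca
H2-Ob: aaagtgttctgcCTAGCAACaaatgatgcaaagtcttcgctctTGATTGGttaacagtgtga
They lie at chr17:34287855-34287919 on the minus strand for H2-Aa, and on the plus strand at chr17:34305761-34305824 for H2-Eb1, chr17:34092288-34092352 for H2-Oa and chr17:34238803-34238864 for H2-Ob, the beta chain partner of H2-Oa. The boxes are 26 bases apart in H2-Aa and H2-Oa, 25 in H2-Eb1 and 23 in H2-Ob. In H2-DMb1 the X box CTAGTAAC and the Y box TGATTGG are 26 bases apart. Neither window of H2-DMa nor that of Ifi30 held the pair.

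The library labelled KO held 25233944 UMIs over 4277 barcodes and that labelled WT 33120715 UMIs over 4957 barcodes. The filters kept 3584 KO and 4037 WT cells (median depth 5097.5 and 6267 UMIs), of which 3268 and 3886 fell in epithelial clusters. 3 of the kept cells' barcodes occurred in both libraries. Foxp1 itself stood at 405 CPM (UMIs of a gene per 1000000 UMIs of the class and library) in the epithelial cells of the library labelled KO and at 252 CPM in those of the library labelled WT, 1.61-fold higher in KO. This goes against the label, although counts over the whole gene do not check a deletion of part of it. For this reason the libraries are named by their labels throughout, and directions between them rest on those labels. With 1 library per group there is no replicate, so no test was possible; the 95% intervals given are exact and cover counting error only.

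Of the epithelial cells, 2784 of 3268 in KO and 3508 of 3886 in WT were grouped into 10 classes, by clusters that were built without the class II genes and named from marker lists. The rest were cortical-like and muscle-like cells and 2 unnamed clusters, and they count in every value over all epithelial cells. The larger unnamed cluster (352 and 159 cells) was shallow, with medians of 1715 and 1947 UMIs, and had 5095 and 6202 CPM of class II. Ccl21a-high cells (389 in KO and 272 in WT) and Ccl21a-low cells (554 and 641) both carried Krt5, Pdpn and further markers of the Ccl21a-expressing medullary list. Aire stood at 908 and 865 CPM in the Aire-stage cells (581 and 867 cells), against 8.69 and 3.99 CPM in the Ccl21a-high cells. The mimetic classes were tuft-like (258 and 498), keratinocyte-like (210 and 315), gut/liver-like (299 and 444), neuroendocrine-like (174 and 157), microfold-like (76 and 107) and ciliated-like (42 and 29) cells. Cycling cells (201 and 178) made the tenth class. The gut/liver-like cluster had 7 of 9 markers of its list, but Ccl22 and Nos2 were also among its leading genes. It also had 3 of 8 Aire-stage markers (Cd80, Ccl22 and Irf8), with Aire at 343 CPM in KO and 438 CPM in WT. Its values are therefore not those of a purely mimetic class. A separate, finer clustering of all cells gave a Ccl22- and Nos2-led cluster (224 and 327 cells). It took the Aire-stage name from 3 of 8 markers (Cd80, Ccl22 and Irf8), with Aire itself at 389 and 536 CPM. A smaller fine cluster led by Ttr and Apoc3 (72 and 119 cells) was named gut/liver-like. How many cells these fine clusters share with the gut/liver-like class was not counted.

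Class II RNA was lowest in tuft-like and Ccl21a-low cells, intermediate in Ccl21a-high and cycling cells, and highest at the Aire stage. The 9 members summed to 12392 CPM (KO) and 12913 CPM (WT) in Ccl21a-high cells, to 16283 and 18390 CPM in cycling cells and to 29544 and 30070 CPM in Aire-stage cells. Close to 3% of all RNA molecules captured from an Aire-stage cell thus came from these genes: the median cell had 58 (KO) and 61 (WT) class II UMIs when each was thinned to 2000 UMIs, or 2.9% and 3.05%. From Ccl21a-high to Aire-stage cells the sum was 2.38-fold higher in KO (95% interval 2.35 to 2.41) and 2.33-fold higher in WT (2.3 to 2.36). Taken against Ccl21a-high and Ccl21a-low cells together, the Aire-stage level was higher by 1.63 (KO) and 1.68 (WT) on the log2 scale. The highest class exceeded the lowest, tuft-like cells at 4472 and 5348 CPM, 6.61-fold in KO and 5.62-fold in WT.

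**Figure D1:**
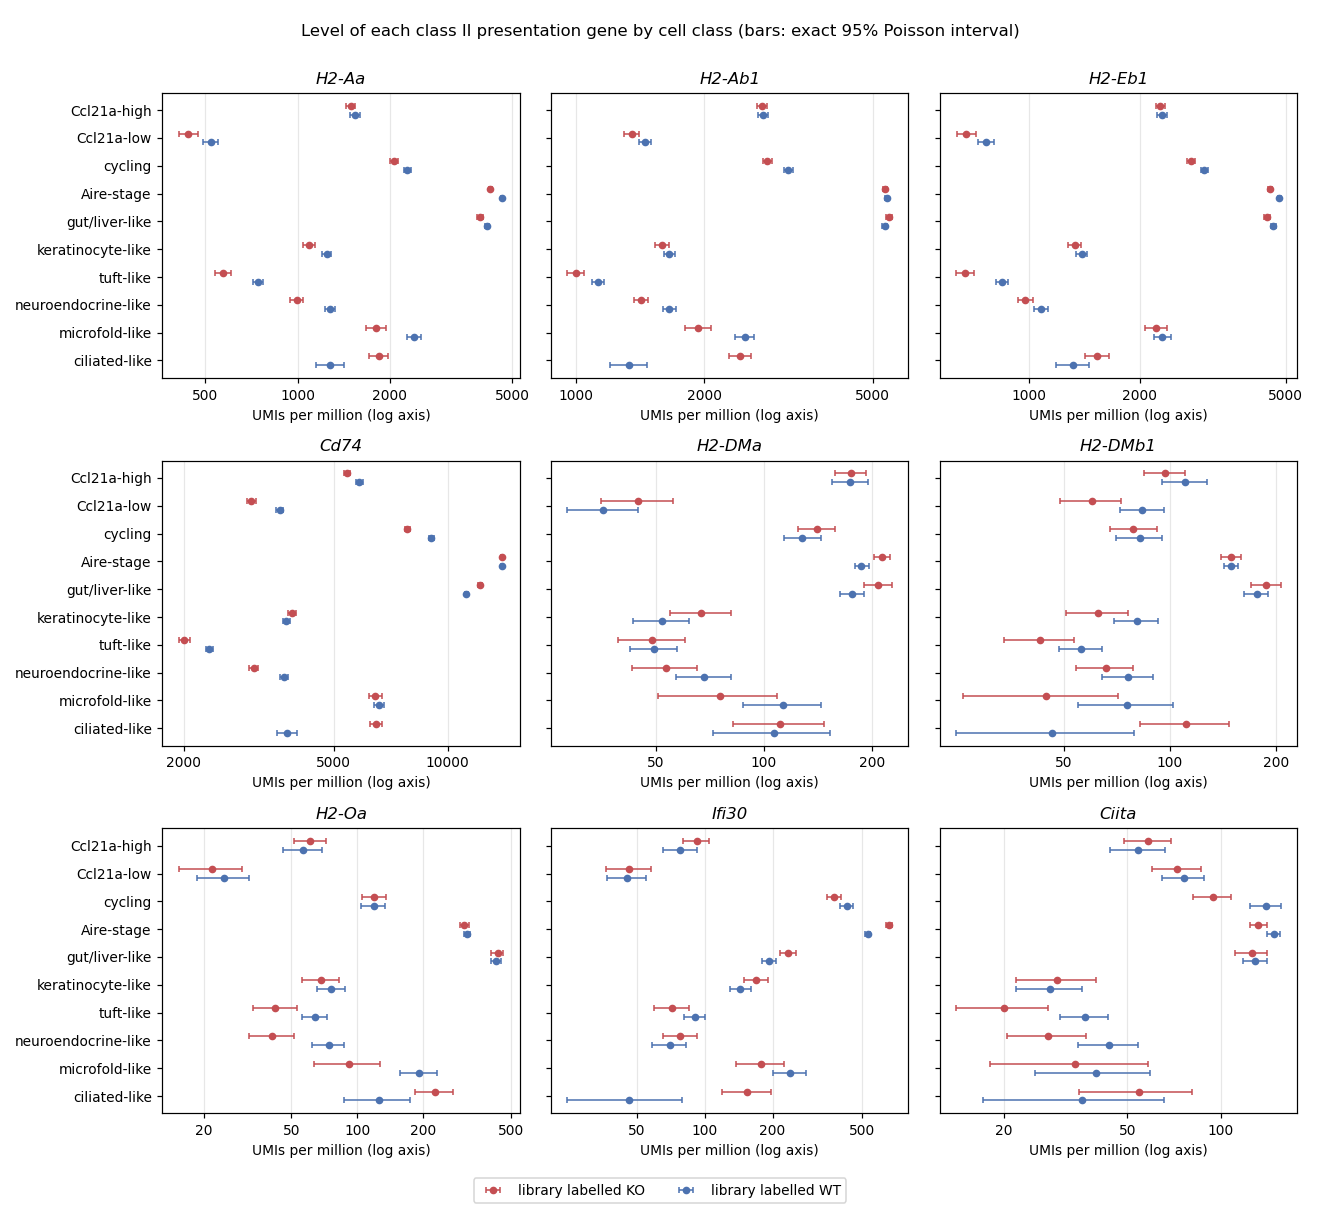
Level of each of the 9 genes in 10 epithelial cell classes, as CPM on a log axis, with the library labelled KO in red and that labelled WT in blue; bars are exact 95% Poisson intervals. Aire-stage cells are highest for 7 genes in WT and 6 in KO. The gut/liver-like class, which has Ccl22 and Nos2 among its leading genes, is highest for H2-DMb1 and H2-Oa in both libraries and for H2-Ab1 in KO.

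The mimetic classes did not share one class II level. The gut/liver-like class, which also carried Aire-stage markers, had 27172 and 26414 CPM. Of the fine clusters, the Ccl22- and Nos2-led one had 29155 and 26989 CPM and the Ttr- and Apoc3-led one 20782 and 22857 CPM. In the Ttr- and Apoc3-led fine cluster H2-Oa was at 257 and 301 CPM and H2-Ab1 at 4533 and 4626 CPM, both below the Aire stage. H2-DMb1 was at 185 and 165 CPM there. Microfold-like cells, which resemble the antigen-sampling cells of the gut, had 12812 and 14439 CPM, near the Ccl21a-high cells. Keratinocyte-like cells had 8291 and 8417 CPM, neuroendocrine-like cells 6722 and 8029 CPM and ciliated-like cells 12908 and 8043 CPM. Ccl21a-low cells had 5738 and 6597 CPM. In WT, neuroendocrine-like and ciliated-like cells did not differ beyond counting error (log2 ratio 0.00, -0.06 to 0.07), nor did ciliated-like and microfold-like cells in KO (0.01, -0.04 to 0.07). The order of the 10 classes was much the same in both libraries, with a Spearman correlation of 0.93 over classes for the sum, given as a description.

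The members did not climb by the same amount from Ccl21a-high to Aire-stage cells. The classical chains stood at 1488 (KO) and 1539 (WT) CPM for H2-Aa in Ccl21a-high cells and at 4246 and 4647 CPM at the Aire stage, a 2.85-fold and 3.02-fold difference. H2-Ab1 differed 1.95-fold in both libraries and H2-Eb1 1.99-fold and 2.08-fold. Cd74, the invariant chain, went from 5405 and 5841 CPM to 13969 and 13907 CPM (2.58-fold and 2.38-fold).
The peptide-editing genes diverged from each other. H2-DMa stood at 175 and 174 CPM in Ccl21a-high cells and at 214 and 187 CPM at the Aire stage, 1.22-fold higher in KO (1.1 to 1.37) and 1.08-fold in WT, where the interval (0.955 to 1.22) includes no difference. H2-DMb1 was 1.55-fold and 1.35-fold higher. Its close relative H2-DMb2, not among the 9, went from 139 and 127 CPM in Ccl21a-high cells to 441 and 414 CPM at the Aire stage. H2-Oa went from 60.9 and 56.5 CPM to 308 and 316 CPM, 5.06-fold (4.26 to 6.05) and 5.6-fold (4.59 to 6.91). Ifi30 showed the widest difference of all 9, from 92.2 and 78.2 CPM to 657 and 527 CPM (7.12-fold and 6.74-fold). Ciita was 2.27-fold and 2.73-fold higher at the Aire stage, at 132 and 148 CPM against 58.3 and 54.2 CPM.

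With these unequal steps, the number of H2-Oa UMIs per 100 H2-DMa UMIs changed from class to class. It was 34.8 (KO, 28.5 to 42.3) and 32.5 (WT, 25.6 to 40.8) in Ccl21a-high cells, 84.8 and 92.4 in cycling cells, 144 (135 to 154) and 169 (160 to 178) at the Aire stage and 209 (187 to 234) and 244 (222 to 268) in the gut/liver-like class. Under finer clustering it was 252 (221 to 289) and 274 (246 to 306) in the Ccl22- and Nos2-led cluster. In the Ttr- and Apoc3-led cluster it was 114 (91 to 143) and 171 (142 to 208). The ratio thus spanned 6.01-fold in KO and 7.51-fold in WT over the classes. It compares RNA of the same pair of genes between classes; the UMIs are not corrected for how well each gene is captured, so a value of 100 does not mean equal amounts. The ratio was lower in KO than in WT in 8 of 10 classes, and the intervals of the libraries did not overlap at the Aire stage. How often ratios of other gene pairs differ as much between the libraries was not counted, and the intervals cover counting error only. H2-Ob, whose product pairs with that of H2-Oa, was at 51.6 and 62.6 CPM at the Aire stage and at 6.09 and 9.13 CPM in Ccl21a-high cells.

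**Figure D2:**
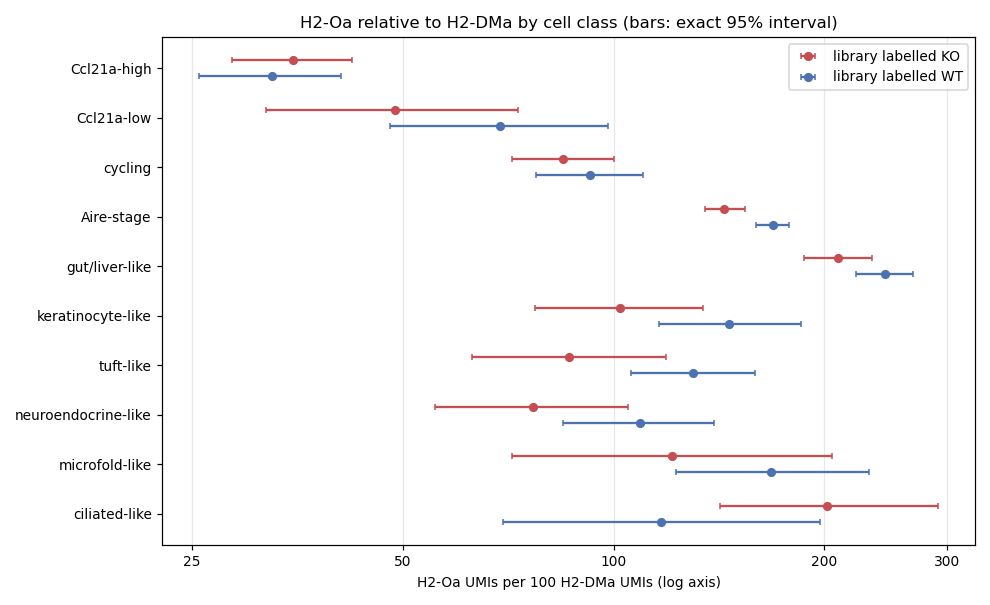
H2-Oa UMIs per 100 H2-DMa UMIs in each cell class on a log axis, library labelled KO in red and WT in blue, with exact 95% intervals. Ccl21a-high cells are lowest at 34.8 and 32.5. The gut/liver-like class, which also carried Aire-stage markers, is highest at 209 and 244. The Ttr- and Apoc3-led fine cluster, at 114 and 171, is not drawn.

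Ccl21a-low cells were low in most class II genes but not in the transactivator. Their Ciita level was 72.2 and 75.9 CPM, above the 58.3 and 54.2 CPM of Ccl21a-high cells (interval of the ratio including 0 in KO, -0.06 to 0.67, and not in WT, 0.12 to 0.86 on the log2 scale). At the same time the 9 members summed to 0.463-fold (KO) and 0.511-fold (WT) of the Ccl21a-high level. The members were lower by unequal amounts: H2-DMa was at 0.255-fold and 0.205-fold of its Ccl21a-high level, H2-Aa at 0.297-fold and 0.339-fold, H2-Eb1 at 0.297-fold and 0.332-fold, and Cd74 at 0.56-fold and 0.615-fold. H2-Aa made up 7.69% and 7.9% of the class II UMIs of Ccl21a-low cells, against 12% and 11.9% in Ccl21a-high cells. Cd74 made up 52.7% and 54.5% of the class II UMIs of Ccl21a-low cells and 43.6% and 45.2% of those of Ccl21a-high cells. Ccl21a-low cells were also shallow, with medians of 2628.5 and 3091 UMIs against 5202 and 6089.5. After thinning to 2000 UMIs, 13.3% and 11.8% of Ccl21a-low cells and 11.2% and 10% of Ccl21a-high cells had a Ciita UMI. This left out 134 KO and 97 WT Ccl21a-low cells and 6 and 2 Ccl21a-high cells under 2000 UMIs. At 1000 UMIs, with no cell of either class left out, the shares were 6.68% and 7.96% against 5.14% and 7.35%. The part of depth in these differences was not tested beyond this thinning.

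Over the 10 classes and both libraries (20 points), Ciita correlated with the other members at Pearson r between 0.58 (H2-Oa) and 0.83 (H2-Ab1) on log2(CPM + 10). The points share 2 libraries, so these values are descriptions.

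Single cells of a class differed widely. At 2000 UMIs per cell, Aire-stage cells had 10th and 90th percentiles of 33 and 98.6 class II UMIs in KO and of 34 and 97 in WT. Of 860 WT Aire-stage cells 1 had none, and of 575 KO cells 0 had none (lowest 1). Ccl21a-high cells had 14 to 39 UMIs in KO and 14 to 40.1 in WT between the same percentiles. Relative to the median the spread was alike: the interquartile range over the median was 0.583 and 0.51 in Ccl21a-high and 0.543 and 0.508 in Aire-stage cells. Gut/liver-like cells spread from 13 to 107 in KO and from 12.2 to 94 in WT. Tuft-like cells had a median of 2 in both libraries, with 20.7% (KO) and 16.9% (WT) of cells at 0 and 90th percentiles of 17 and 20. Fibroblast-like cells, which should lack class II, had medians of 1 and 0 over 22 and 12 cells, and 45.5% and 58.3% of them had none. Median depth before thinning was 5143.5 and 5498 UMIs in tuft-like and 3947 and 4351 in fibroblast-like cells. The 90th percentile of fibroblast-like cells was 17.7 in KO, beside 17 in tuft-like cells, and 1.9 in WT. By the medians, the lower part of the tuft-like cells lay near this background, which differed between the libraries and rests on few cells.

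**Figure D3:**
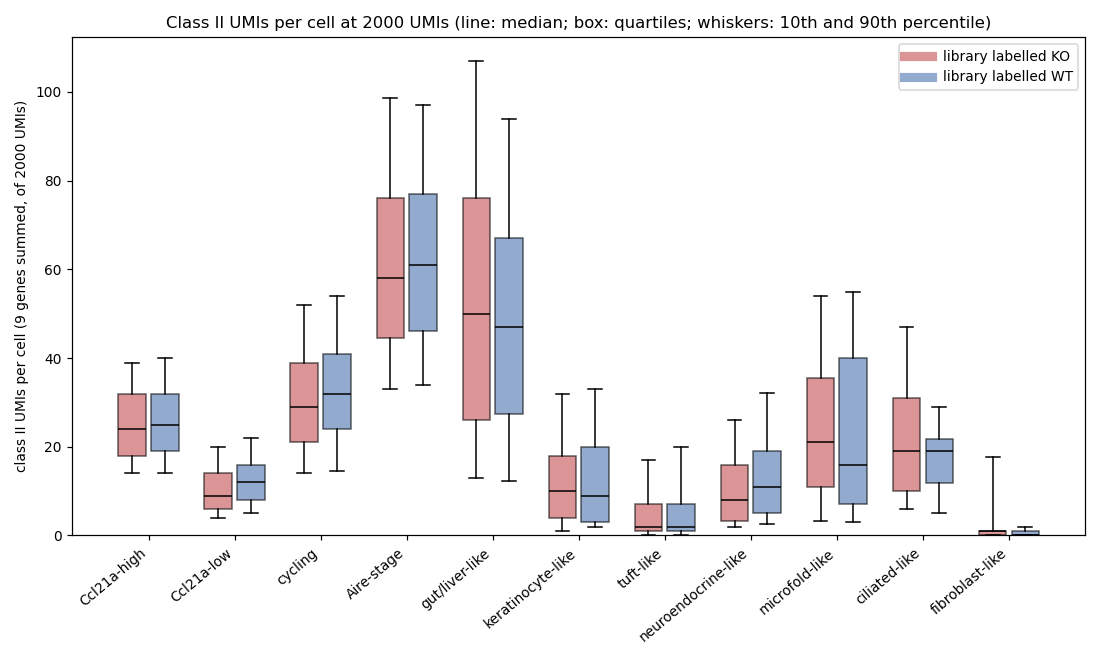
Class II UMIs per cell, summed over the 9 genes, after thinning each cell to 2000 UMIs, by cell class and library; the line is the median, the box the quartiles and the whiskers the 10th and 90th percentiles. Aire-stage medians are 58 (KO) and 61 (WT), tuft-like medians 2 in both libraries, and fibroblast-like cells, shown as background, have medians of 1 and 0.

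Finer clustering of all cells gave a tuft-like cluster with more class II and another with less. Their overlap with the tuft-like class was not counted. Tuft cells are chemosensory epithelial cells. The first, led by the taste-signalling gene Gnat3 (133 KO and 252 WT cells), had 6612 and 8153 CPM of class II. The second, led by Nrgn and Alox5ap (128 and 256 cells), had 1300 and 1491 CPM. Fibroblast-like cells, taken as background, had 2960 CPM in KO and 273 CPM in WT. The Nrgn-led cluster was thus below the background in KO and above it in WT. H2-Aa stood at 844 and 1215 CPM in the Gnat3-led cells and at 171 and 149 CPM in the others, and Cd74 at 3030 and 3559 CPM against 498 and 620 CPM. At 2000 UMIs per cell the medians were 5.5 and 4 in the Gnat3-led cells, with 90th percentiles of 23.3 and 35.8, against 1 and 2 with 90th percentiles of 5.6 and 6. The Gnat3-led cells were deeper before thinning (medians of 7415 and 8577.5 UMIs against 4267 and 4236.5) and carried more Ccl21a (1638 and 1205 CPM against 167 and 203). Class II genes were kept out of this clustering too.

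Within the Aire stage the level differed between clusters. The larger cluster had 30948 and 30908 CPM, and the smaller one, in which Fezf2 and Utf1 were among the markers, 26676 and 27397 CPM. The fine cluster with most Aire (1401 and 1163 CPM) had 32868 and 33459 CPM. Other fine clusters of the stage had 25442 and 25938 CPM (led by Tmem158) and 31792 and 34449 CPM (led by Ins2). Under finer clustering, keratinocyte-like cells had 9482 and 10429 CPM and a secretory-like cluster led by Bpifa1 had 5894 and 4813 CPM.

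Between the libraries, class II expression at the Aire stage differed little. No member was past 1.5-fold in either direction in Aire-stage cells. Of all 10637 genes with a mean of at least 10 CPM there, 3.85% were 1.5-fold or more higher and 4.83% as much lower in KO. The sum was -0.03 on the log2 scale (-0.03 to -0.02), and the median of the 9 members was -0.02 beside -0.03 for all genes. H2-Aa was at 4246 CPM in KO and 4647 CPM in WT (-0.13, -0.15 to -0.11), H2-Ab1 at 5332 and 5389 CPM (-0.02, -0.03 to 0.00) and Cd74 at 13969 and 13907 CPM (0.01, -0.01 to 0.02). Ifi30 had the largest difference of the 9, 657 CPM in KO and 527 CPM in WT (0.32, 0.26 to 0.37). It was higher in KO in 7 of 10 classes, as was H2-DMa, but the share of all genes higher in as many classes was not counted. Ciita was at 132 and 148 CPM (-0.16, -0.28 to -0.05). At 2000 UMIs, 21.4% of KO and 24.7% of WT Aire-stage cells had a Ciita UMI (65.6% and 70.1% before thinning). Of the 22 and 12 fibroblast-like cells 0 had one, but so few cells set only a loose upper limit.
By any amount, 4 of 9 members were higher in KO, where 45.5% of all genes were.
The same held for 5 other classes, in which 0 of 9 members were past 1.5-fold in either direction. In Ccl21a-high cells 5.41% of all genes were that much higher and 6.83% that much lower in KO, and 4 of 9 members were higher by any amount beside 46.7% of genes. In Ccl21a-low cells the shares were 7.75% and 5.36%, and 2 members were higher by any amount beside 53.6%. In cycling cells they were 6.74% and 6.35%, with 2 members higher by any amount beside 50.6%. The classical chains and Cd74 were lower in KO in each of these 3 classes, with log2 ratios down to -0.25, and in Ccl21a-high cells the intervals of the 3 chains include 0. In gut/liver-like cells 5.25% of genes were 1.5-fold higher and 7.71% as much lower, and 6 members were higher by any amount beside 46.5%. In keratinocyte-like cells the shares were 8.56% and 6.86%, with 4 members higher by any amount beside 49.7%. The nearest to the limit was Ciita in cycling cells, at 94.2 CPM in KO and 140 CPM in WT (-0.57, -0.83 to -0.30).

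**Figure D4:**
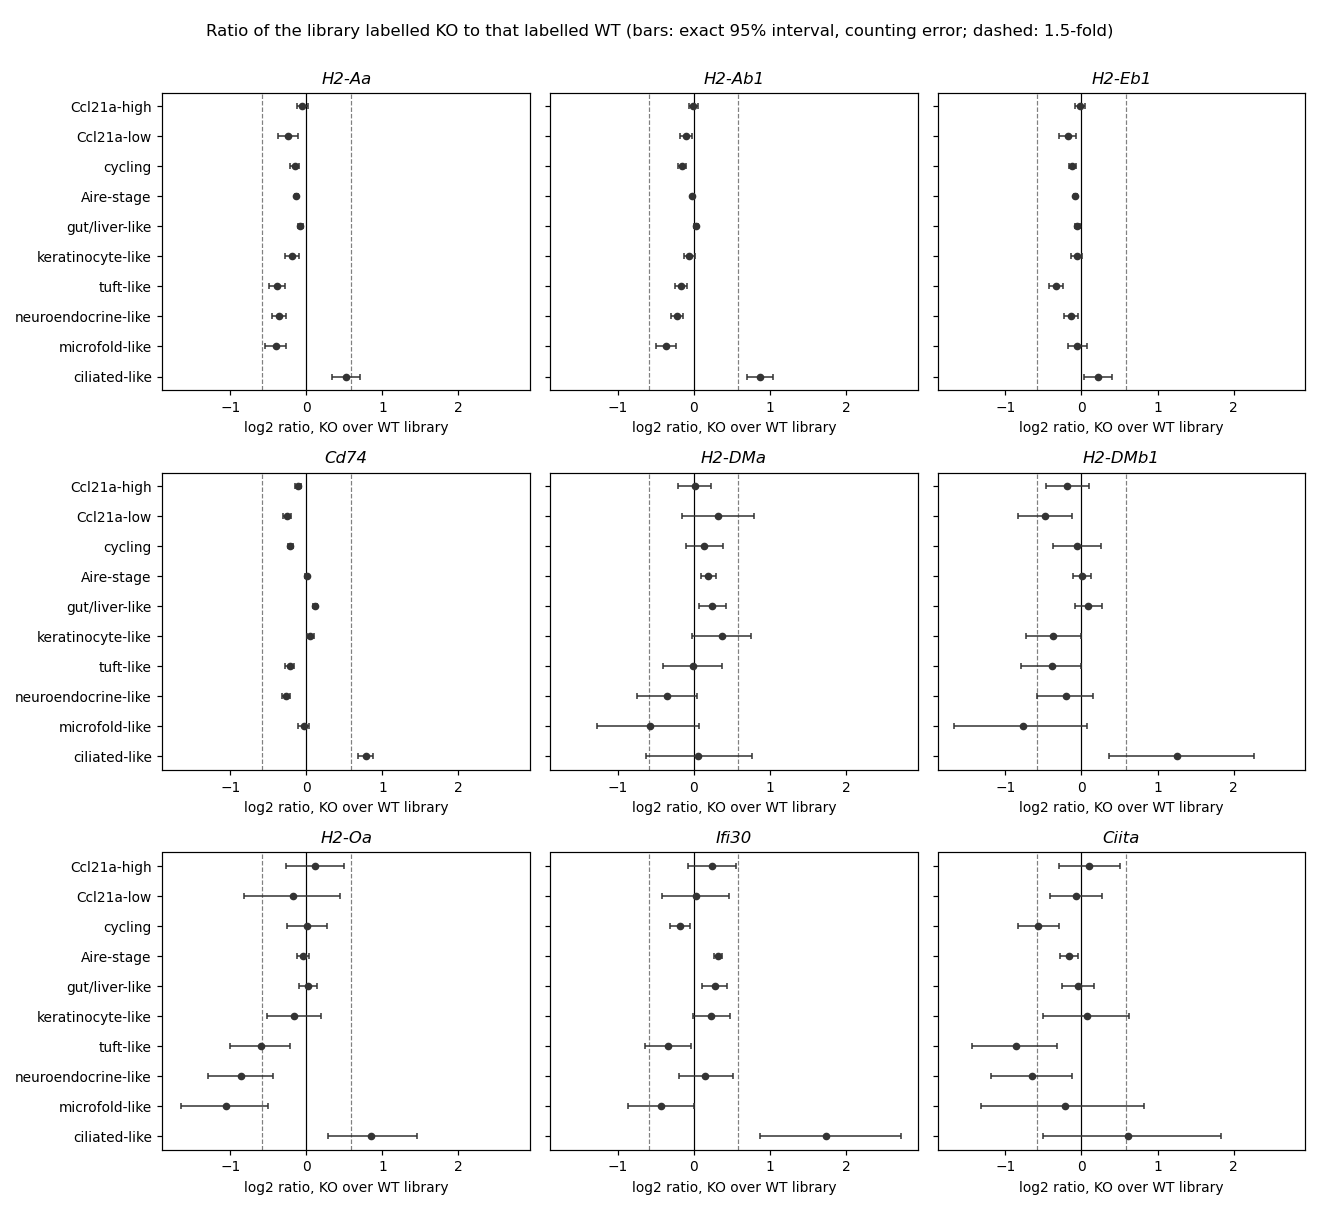
Log2 ratio of the library labelled KO over that labelled WT for each gene in each cell class, with exact 95% intervals for counting error; dashed lines mark 1.5-fold. Points of the Aire-stage and Ccl21a-high cells sit close to 0, H2-Oa and Ciita lie to the left in tuft-like and neuroendocrine-like cells, and ciliated-like cells, of which there were 42 and 29, lie to the right.

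Over all epithelial cells pooled the class II sum was lower in KO, 17562 against 19434 CPM (-0.15, -0.15 to -0.14), and 0 of 9 members were past 1.5-fold (background 1.78% higher and 2.5% lower; by any amount 2 of 9 members and 47.6% of genes were higher). H2-Aa differed most, 2411 against 2903 CPM (-0.27, -0.28 to -0.25). The make-up of the libraries moved with this: Aire-stage cells were 17.8% of KO and 22.3% of WT epithelial cells, Ccl21a-high cells 11.9% and 7%, and the larger unnamed cluster, low in class II, 10.8% and 4.09%. Tuft-like cells, the lowest class, went the other way, at 7.89% and 12.8%. With the class make-up of KO held at that of WT, a calculation added after the data had been seen, the sum was 18838 CPM against 19434 CPM, or -0.04, and H2-Aa -0.15. H2-Aa was lower in KO in 9 of the 10 classes, in 8 of them with an interval below 0, and H2-Eb1 in 9, in 6 of them with an interval below 0. The share of all genes lower in as many classes was not counted. At these UMI numbers small shifts leave out 0, since the intervals cover counting error only.

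Lower values past 1.5-fold in KO were found in 3 mimetic classes, at H2-Oa, Ciita and H2-DMb1. In microfold-like cells these were 2 of 9 members, near the 18.1% of all genes that were that much lower there. In tuft-like cells H2-Oa was at 42.2 CPM in KO and 64.1 CPM in WT (-0.60, -1.0 to -0.22) and Ciita at 20 and 36.4 CPM (-0.86, -1.44 to -0.32), 2 of 9 members where 4.97% of all genes were that much lower and 4.76% that much higher. By any amount 0 of 9 members were higher in tuft-like cells, where 50.5% of genes were, and the member median was -0.34. Ciita rested on 36 UMIs in 23 of 258 KO cells and 130 UMIs in 68 of 498 WT cells. In the Gnat3-led tuft cells alone Ciita stood at 29.3 and 53.5 CPM (-0.87, -1.44 to -0.33). Thinning to 2000 UMIs brought both differences in tuft-like cells near 0 (-0.03 for H2-Oa and -0.07 for Ciita), with few UMIs left and wide intervals.
Neuroendocrine-like cells showed the same pair: H2-Oa at 40.8 and 73.9 CPM (-0.86, -1.29 to -0.44) and Ciita at 27.8 and 43.6 CPM (-0.65, -1.19 to -0.12), with a background of 8.52% lower and 6.05% higher. By any amount 1 of 9 members, Ifi30, was higher, beside 49.7% of genes. Here thinning gave -1.11 and -0.89, with intervals that include 0. A filter left out each cell with a UMI of any of a list of blood-cell genes, which also holds the T-cell gene Cd3e. It took out 9.2% of KO and 14.6% of WT cells in this class, and 34.6% and 37.4% of Aire-stage cells. With this filter the values were -0.56 and -0.51, under 1.5-fold. Of 7 dendritic-cell markers 2 had UMIs in KO and 3 in WT, with Xcr1, Cd209a, Siglech and Clec9a at 0 in both. That list summed to 21 and 30.8 CPM and the macrophage list to 79.3 and 81.9 CPM. The B-cell list summed to 23.8 and 33 CPM and the thymocyte list to 15.3 and 40.9 CPM.
In microfold-like cells H2-Oa was at 91.4 and 191 CPM (-1.06, -1.65 to -0.50) and H2-DMb1 at 44.4 and 75.6 CPM (-0.77, -1.67 to 0.07), with a background of 18.1% lower and 15.4% higher, and by any amount 0 of 9 members and 47.4% of genes were higher. A single WT cell held 59 of the 111 H2-Oa UMIs; without the richest cell of each library the levels were 82.4 and 91.8 CPM (-0.16, -0.85 to 0.51). H2-DMb1 rested on 17 and 44 UMIs. The sum was lower in KO by CPM (12812 against 14439), but the median cell at 2000 UMIs was higher, 21 against 16.

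Ciliated-like cells went the other way. Their class II sum was 12908 CPM in KO and 8043 CPM in WT (0.68, 0.61 to 0.75), and 6 of 9 members (H2-Ab1, H2-DMb1, H2-Oa, Cd74, Ciita and Ifi30) were past 1.5-fold, where 21.6% of all genes were that much higher and 22.2% that much lower; by any amount all 9 were higher, beside 49.5% of genes. The class has 42 KO and 29 WT cells, and at 2000 UMIs the median was 19 in both libraries. Of the 68 KO Ifi30 UMIs, 49 were in 1 cell. UMIs of the blood-cell genes of that filter were found in 14 of 42 KO cells and 1 of 29 WT cells. The macrophage list summed to 95.3 and 21.4 CPM and the endothelial list to 166 and 57 CPM, with C1qa, C1qb and C1qc at 0 in both libraries. Leaving out the cells with such UMIs gave a sum ratio of 0.89, and assigning cells by their markers one by one gave -0.13.

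Of the wider pathway, 25 listed genes were present and 23 reached the level needed in Aire-stage cells. In that class 0 were 1.5-fold or more higher in KO and 2 as much lower, with a median of -0.06, beside 3.85% and 4.83% of all genes and a median of -0.03. Nfya, a subunit of the NF-Y complex that binds the Y box, was at 24.7 CPM in KO and 46.2 CPM in WT (-0.90, -1.17 to -0.65). Ctsd, the endosomal protease cathepsin D, was at 26.5 and 41 CPM (-0.63, -0.89 to -0.38). The most abundant gene among the transcription factors was Creb1 at 79 and 83.7 CPM, among the interferon-gamma input genes Jak1 at 215 and 235 CPM and among the proteases Ctsl at 252 and 217 CPM. H2-DMb2, the close relative of H2-DMb1, was the most abundant of the other class II genes at 441 and 414 CPM.
The interferon-gamma route, which induces Ciita, was not uniform over the classes. Irf1, Ifngr2, Ctss and H2-Ob were chosen for mention after their values were seen. Irf1, a transcription factor induced by interferon-gamma, was at 503 and 463 CPM in Ccl21a-low cells and at 134 and 146 CPM at the Aire stage. Its correlation with the class II sum over the 20 points was -0.57, whereas that of the receptor chain gene Ifngr2 was 0.71. The proteases also divided: Ctss, cathepsin S, which trims the invariant chain, was at 163 and 157 CPM at the Aire stage against 16.1 and 33.7 CPM in Ccl21a-high cells, whereas Ctsl was at 2620 and 1970 CPM in Ccl21a-high cells and 252 and 217 CPM at the Aire stage.
March1, a ubiquitin ligase that removes class II from the cell surface, was chosen for mention after its values were seen. It stood at 14.2 CPM in KO and 103 CPM in WT neuroendocrine-like cells, but its UMIs lay in 5 of 174 and 9 of 157 cells, 71 of the 194 WT UMIs in 1 cell.

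The genes whose pattern over the 10 classes and both libraries was most like that of the class II sum, of 10959 compared on log2(CPM + 10), were Psmb10 (r = 0.93), Pdlim4 (0.92), Cd40 (0.90), Gm11588 (0.90), Gcat (0.88), Srgn, Srl, Psme1, Med10 and Psma4 (0.87 each). Psmb10 encodes an immunoproteasome subunit, and its level ran from 64.3 CPM in WT Ccl21a-low cells to 390 CPM in WT Aire-stage cells. Cd40, a receptor for signals from T cells, ran from 15 CPM in KO tuft-like cells to 193 CPM in KO Aire-stage cells. Aire itself had r = 0.69 and Fezf2 0.82. The 20 points share libraries and differ in depth, and no test is attached to these values.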

How the data were processed

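UMI counts were used as deposited; per the file headers, Cell Ranger 7.0.1 wrote them. Seurat and mm10 are named in the submitters' processing notes, with no role. Titles set the groups, since the genotype field gives KO for each. Cells with 500 or more genes, 1000 or more UMIs and a mitochondrial share of 10% or less were kept. Scrublet called 0 doublets, a sign that it failed here, and doublets were left in. Both libraries were clustered together (scanpy 1.11.5; 3000 variable genes, 30 components, 15 neighbours, Leiden resolution 1), without the class II genes. The 22 marker lists named clusters; naming thresholds were set after clusters were seen. UMIs were summed per class and library and scaled to CPM, with exact Poisson and conditional binomial 95% intervals. A call needed 1.5-fold and a mean of 10 CPM. The members and lists were chosen with earlier results of these data known. Named genes were the 9 members, pathway genes past 1.5-fold in Aire-stage cells with an interval leaving out 0 or most abundant in their group, and the 10 genes most like the class II sum. Irf1, Ifngr2, Ctss, H2-Ob and March1 fall outside this rule and were named after their values were seen. H2-Eb2 also falls outside it and was named for its position and promoter only. Alternatives changed the cell filter, clustering, class definition, weighting, denominator, scaling, doublets, blood-cell RNA, depth and level minimum. The ratios and thinning were tested on simulated data.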

Additional observations from a re-analysis of the deposited data

Results flagged for a closer look

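The class II sum moved in opposite directions between the libraries in ciliated-like cells (0.68 on the log2 scale, KO over WT) and tuft-like cells (-0.26). This difference between classes was not tested, and it rests on 1 library per group. At 2000 UMIs per cell the libraries had equal medians, 19 in ciliated-like and 2 in tuft-like cells. With every kept cell assigned by its own markers, the ciliated-like sum was -0.13. That set of cells is not the cluster of 42 KO and 29 WT cells, and their overlap was not counted. The direction thus depended on which cells were called ciliated-like.

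Class II UMIs also appeared in cells outside the epithelial classes. Endothelial-like cells held 17392 CPM in KO and 19434 CPM in WT, and thymocyte-like cells 10722 and 12282 CPM, above the 2960 and 273 CPM of fibroblast-like cells. Endothelial-like cells carried Epcam (380 and 327 CPM) and Aire (398 and 508 CPM) as well. At 2000 UMIs per cell, the 127 KO endothelial-like cells with an Epcam, Krt8 or Krt18 UMI had a median of 33 class II UMIs, and the 71 without had a median of 1. In WT the medians were 43.5 over 54 cells and 1 over 30 cells. Thymocyte-like cells with such an epithelial UMI had medians of 22 (11 KO cells) and 8 (17 WT cells), against 2 and 1 in those without (13 and 18 cells).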

How the results depend on the processing

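The Aire-stage class II level over both Ccl21a classes, 1.68 (log2, WT), stayed between 1.41 and 1.91 under 11 alternatives. It was 1.59 with a stricter cell filter, 1.61 and 1.52 at Leiden resolutions 0.5 and 2, 1.60 with class II genes kept in the clustering, 1.41 with classes from markers per cell, 1.91 with equal weight per cell, 1.75 without mitochondrial and ribosomal genes in the total, 1.80 with the median ratio of genes, 1.72 without the highest doublet scores and 1.88 at 2000 UMIs per cell. The Aire-stage KO over WT ratio (-0.03) was -0.04 at resolution 0.5 and -0.01 with classes per cell. It was -0.00 without mitochondrial and ribosomal genes and without the highest doublet scores. Without cells holding blood-cell gene UMIs, 34.6% of KO and 37.4% of WT Aire-stage cells, it was -0.04. The ratio over all epithelial cells (-0.15) was -0.15 with the stricter filter, -0.13 with classes per cell and without mitochondrial and ribosomal genes, and -0.18 with equal weight. It was -0.11 without cells holding blood-cell gene UMIs and -0.10 at 2000 UMIs. With the class make-up held, which was added after seeing the data, it was -0.04. In microfold-like cells H2-DMb1 turned to 0.16 with class II genes in the clustering, 0.01 without the highest doublet scores and 0.04 at 2000 UMIs. In ciliated-like cells classes per cell gave -0.03 for H2-Ab1, -0.18 for H2-Oa, -0.03 for Cd74, -0.04 for Ciita and -0.13 for the sum, and H2-Oa was -0.23 at 2000 UMIs. The cause of these changes was not tested. Of 864 member ratios under alternatives, 744 kept their sign; of 132 values for the 12 ratios past 1.5-fold, 102 stayed past it. No paired analysis was possible because each group is 1 library. Rare genes such as Ciita are limited by depth in the small classes, and no interval covers variation between animals.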

Other observations

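An unnamed epithelial cluster led by Klk1b26, Ccl5 and Fabp9 (90 KO and 211 WT cells) had as much class II as the Aire stage, at 28083 CPM in KO and 31372 CPM in WT. H2-Oa was at 448 and 528 CPM there, and Ifi30 at 616 and 329 CPM (0.90, 0.63 to 1.18 on the log2 scale). Aire stood at 212 and 281 CPM in this cluster, and its cells were shallow, with medians of 2475.5 and 1921 UMIs.

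Cortical epithelial-like cells, which carried all 7 of their markers including Psmb11 and Prss16, had 17151 CPM of class II over 31 KO cells; WT held 2 such cells, so no ratio is given. Muscle-like cells, with 11 and 6 cells, had 2367 and 2803 CPM, and H2-Oa had 0 UMIs in both libraries. The upper limits for H2-Oa there, 29.8 CPM in KO and 60.1 CPM in WT, lie above the Ccl21a-low levels of 21.7 and 24.6 CPM.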
